A study of Mus musculus with 2 samples.

Results

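A small set of splenic natural killer (NK) cells carried transcripts of Tnfrsf9, Spp1, Ccl1 or Serpine2 in combination. These cells were chosen by their own transcript counts. A cell was first gated as an NK cell by at least 1 unique molecular identifier (UMI) of Ncr1 or Klrb1c and 0 UMIs of Cd3e, Cd79a, Ms4a1 and Csf1r. It became a member when at least 2 of the 4 selecting genes Tnfrsf9, Spp1, Ccl1 and Serpine2 were detected. The rule found 358 members among 10026 gated cells, out of 11989 cell barcodes in all. Of these members, 290 came from the library of control mice and 68 from the library of mice under dietary restriction (DR). The other gated cells, 4840 in the control and 4828 in the DR library, served as the comparison.

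The study sorted NK cells from mouse spleen by flow cytometry and profiled single cells in droplets with a 10x Genomics 3' kit. Only 1 library stands for each group, so a difference between groups compares 2 libraries and has no replicate check, and no p-value can be given. Both libraries came from sorted spleen NK cells and the labels record no genetic change in either group. The labels do not state the strain, age or sex of the mice, how many there were, whether they were pooled, how the diet was restricted or for how long, or the sorting gate. In the title of the series the study is tied to the transcription factor Eomes, and the labels state no question about the cells described here. All locations of genes are in build mm10.

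NK cells circulate as resting lymphocytes and enlarge when cytokines or ligands of their activating receptors reach them, building ribosomes, nucleotides, polyamines and chaperones before they divide. Tnfrsf9 encodes CD137 (4-1BB), a costimulatory receptor of the TNF receptor superfamily that activated lymphocytes display, and Spp1 encodes osteopontin, a secreted phosphoprotein. Serpine2 encodes a secreted inhibitor of serine proteases, and Ccl1 encodes a chemokine that binds CCR8. Srm encodes spermidine synthase, an enzyme of polyamine synthesis, and Crtam encodes a receptor for nectin-like molecules. Both were given as markers of these cells without entering the rule. Tnfrsf9 lies on chromosome 4 (150914562 to 150946102, plus strand), Spp1 on chromosome 5 (104435118 to 104441050, plus), Serpine2 on chromosome 1 (79794197 to 79861180, minus) and Ccl1 on chromosome 11 (82176657 to 82305690, minus). Srm lies on chromosome 4 (148591503 to 148594993, plus) and Crtam on chromosome 9 (40969691 to 41004628, minus).

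The summed UMIs of a class of cells are given as counts per 1000000 of its UMIs (CPM). They rest on 3283441 UMIs in control members and 659877 in DR members, against 38070044 and 30409047 in the other cells. All intervals are given at 95% for counting error alone and say nothing about differences between mice or between cells. Members were deeper than the other cells, with a median of 9553.5 against 7169 UMIs in the control library and 9033 against 5603.5 in the DR library. Their median share of mitochondrial UMIs was 1.56% against 1.64% and 2.52% against 2.46%. The median depth was higher with each further selecting gene detected, from 6747 UMIs with none to 10014 with 3 in the control library and from 5310 to 9458 in the DR library. Depth thus moved with membership, and comparisons at equal or weighted depth are given below. The 2 libraries shared 13 barcodes, none of them a member.

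Short stretches upstream of 3 genes are shown, and each holds a match to a motif named below. Tnfrsf9 is the selecting gene found in nearly every member. Nme1 and C1qbp, a nucleoside diphosphate kinase gene and a mitochondrial matrix protein gene, were higher in members of both libraries. The first listed start of Tnfrsf9 had no match. Neither did any listed start of Spp1, Serpine2, Ccl1, Hspe1, Gar1, Nrgn, Odc1, Phgdh, Ppp1r14b or Nme2. Bcl2a1b and the other listed start of Nme1 had matches and are not shown. They come from the RefSeq promoter table for build GRCm38.p6, read 5' to 3' on the gene's strand, and capitals mark a motif match. Positions are counted back from the listed transcript start.
Tnfrsf9, second listed start, chr4:150927954-150927983, plus strand, positions -45 to -16: ctGGGGATTTCCcaggaggccctgctcagt
Nme1, chr11:93968026-93968145, minus strand, positions -120 to -1: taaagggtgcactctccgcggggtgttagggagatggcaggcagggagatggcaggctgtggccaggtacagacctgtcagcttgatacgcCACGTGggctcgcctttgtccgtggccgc
C1qbp, chr11:70983027-70983146, minus strand, positions -120 to -1: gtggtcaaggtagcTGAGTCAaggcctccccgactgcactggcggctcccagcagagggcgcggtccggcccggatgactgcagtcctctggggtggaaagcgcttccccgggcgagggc

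The Tnfrsf9 stretch matches the kappa-B consensus at -43, the type of site that NF-kB subunits bind, and the AP-1 letters TGANTCA follow at -15, just past the stretch shown. In GENCODE vM21 it overlaps an exon of another Tnfrsf9 transcript model, and it also lies inside the body of Camta1. The Nme1 stretch holds the E-box CACGTG at -29, a sequence bound by MYC and MAX, and lies in the gene bodies of Nme1 and the gene model Gm20390 but in no exon. The C1qbp stretch, outside any annotated gene body, holds an AP-1 match at -106. Motifs were searched on both strands in the 250 bases before each start. CACGTG was found before 7 of the 41 genes with an entry in the table among those called higher in members, before 0 of 15 called lower, and before 6.86% of all 27025 symbols. TGANTCA was found before 7 of the 41, 3 of the 15 and 7.82% of all, and the kappa-B consensus before 0 of 41, 0 of 15 and 4.46% of all. These matches describe letters in a window and were not tested against binding.

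Members made up 5.65% of gated cells in the control library (290 of 5130, exact Clopper-Pearson interval 5.04 to 6.32) and 1.39% in the DR library (68 of 4896, 1.08 to 1.76). The control share was 4.07 times the DR share. DR cells were shallower, so every gated cell was thinned at random to 3000 UMIs. The shares were then 1.90% (92 of 4852 cells, 1.53 to 2.32) and 0.556% (26 of 4675 cells, 0.364 to 0.814), and their ratio was 3.41. Thinning left out 278 control and 221 DR cells that were too shallow, 4 and 2 of them members. The share thus differed between the libraries at equal depth by more than counting error, and whether mice of the groups differ in it was not tested.

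The gap between the libraries was wider for Spp1 and Serpine2 than for Tnfrsf9. Over all gated cells, whose median depth was 7268.5 UMIs in the control and 5627.5 in the DR library, Tnfrsf9 was detected in 30.6% of control cells and 21.8% of DR cells. Spp1 was detected in 7.02% of control cells (6.33 to 7.75) and 1.45% of DR cells (1.13 to 1.83). Serpine2 was detected in 3.84% of control cells (197 of 5130) and 1.02% of DR cells (50 of 4896). Ccl1 was found in 2 gated cells of each library, all of them members. B-like reference cells of the same libraries, gated on Cd79a and Ms4a1, are set beside these shares. A UMI in them can come from free RNA in the droplets or from the B cells themselves, and which was not tested. Their median depth was 8194 UMIs in the control and 6628 in the DR library. Among them Tnfrsf9 was detected in 0 of 93 control and 3 of 397 DR cells, and Spp1 in 1 and 1. Serpine2 was detected in 14 of the 93 and 22 of the 397, which is 15.1% and 5.54%, above the share in gated cells. Whether a Serpine2 UMI in a gated cell came from that cell was not tested.

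Tnfrsf9 was almost common to the members. It was detected in 284 of 290 control members and 67 of 68 DR members, Spp1 in 226 and 46, and Serpine2 in 118 and 27. The most frequent pair was Tnfrsf9 with Spp1, the exact combination of 170 control and 39 DR members. Tnfrsf9 with Serpine2 made up 62 control and 20 DR members, and all of Tnfrsf9, Spp1 and Serpine2 were found in 50 and 6. Spp1 with Serpine2 but no Tnfrsf9 occurred in 6 control and 1 DR member.

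The levels of the selecting genes follow from the rule and are given as a description. Tnfrsf9 was at 354 CPM in control members against 67.6 in other control cells, and at 506 against 60.3 CPM in the DR library. Spp1 was at 199 against 5.02 CPM in the control library and 170 against 1.38 CPM in the DR library. Both genes were also found outside the members, since every cell with only 1 selecting gene is among the other cells. Serpine2 was at 69.4 against 2.68 CPM in the control library and 72.7 against 1.02 CPM in the DR library. Ccl1 was at 1.52 CPM in control members and 164 CPM in DR members, and at 0 UMIs in the other cells of both libraries. Of its 108 UMIs in DR members, 105 lay in 1 cell, so the Ccl1 level describes that cell and not the class.

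Just outside the threshold stood 1497 control and 1047 DR cells with exactly 1 selecting gene, against 240 and 62 cells just inside it with exactly 2. The gene was Tnfrsf9 in 1284 and 999 of the cells outside. Tnfrsf9 was at 182 and 225 CPM in all cells with exactly 1 selecting gene and at 328 and 507 CPM in those with exactly 2.

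**Figure D1:**
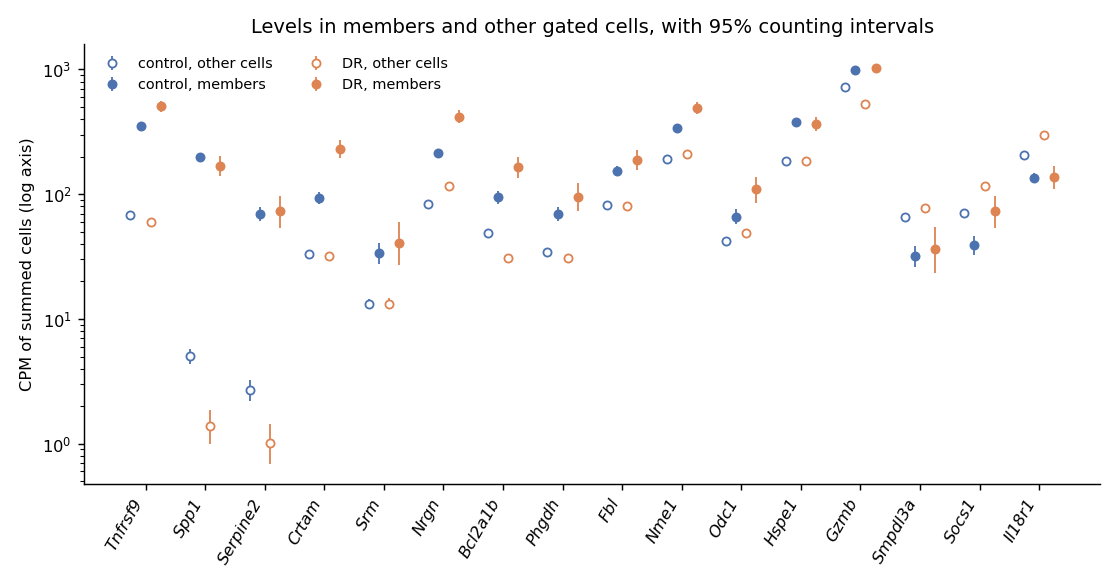
Levels of 16 genes (horizontal axis) in CPM of the summed cells (vertical axis, log scale) in members (filled) and other gated cells (open) of the control (blue) and DR (orange) libraries, with exact Poisson 95% intervals. Tnfrsf9, Spp1 and Serpine2 chose the members. Crtam and Srm did not enter the rule but were given as markers of these cells. They were higher in members of both libraries, at 93.5 against 32.9 and 33.5 against 13.1 CPM in the control library.

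The labelled lineage was checked first. All 9 NK marker genes fixed for this work were detected in members of both libraries, at a summed 19243 CPM in control members and 14807 CPM in DR members against 23483 and 21020 CPM in the other cells. Ncr1 and Klrb1c are among the 9 and formed the gate, so their detection is no check of lineage. Gzma alone gave 10154 and 6675 CPM of the sums in control and DR members. A UMI of Eomes was found in 253 of 290 control and 57 of 68 DR members, 87.2% and 83.8%, against 76.7% and 71.4% of the other cells. With every cell thinned to 3000 UMIs these shares were 57.7% (165 of 286) and 33 of 66 in members, 55.5% and 54.4% in the other cells, and 1.20% and 0.265% in B reference cells. Eomes itself was at 314 against 313 CPM in the control library and 276 against 298 CPM in the DR library, a log2 ratio of members to other cells of 0.01 (-0.09 to 0.10) and -0.11 (-0.33 to 0.10). Cells with a transcript of Il7r, Cxcr6 or Tmem176a and no Eomes, an ILC1-like pattern, numbered 8 of 290 and 3 of 68 members, against 6.47% and 9.32% of the other cells. The 7 ILC1 markers summed to 136 and 152 CPM in members against 188 and 273 CPM in the other cells.

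Markers of other lineages were summed in the same way. The 10 T cell genes summed to 728 and 659 CPM in control and DR members against 798 and 725 CPM in the other cells, mostly from Trbc1 and Trbc2, with Cd3e (gated out), Cd8a, Cd8b1 and Cd4 at 0 in members of both libraries. The B list summed to 169 CPM in control members and 323 CPM in DR members, against 205 and 291 CPM in other cells, with the gated Cd79a and Ms4a1 at 0. The macrophage and monocyte list stood at 49.3 and 45.5 CPM in members against 44.3 and 50.3 CPM in the other cells. All 6 neutrophil genes were at 0 in control members and 5 of 6 in DR members. The dendritic cell list was higher in members, at 215 and 256 CPM against 145 and 165 CPM, most of it from Itgax at 201 and 208 CPM, with Flt3, Xcr1, Clec9a and Cd209a at 0. The plasma cell list was higher too, at 101 and 78.8 CPM against 66.3 and 64.9 CPM, most of it from Xbp1, with Sdc1, Igha and Ighg2b at 0. The stromal and endothelial list was at 67.3 and 78.8 CPM against 49.2 and 44.3 CPM, nearly all from Pecam1, with Col1a1, Col3a1 and Dcn at 0. The part of these lists in the results was not tested. Doublet scoring placed 18 of 290 control and 1 of 68 DR members among the highest scores, 6.21% and 1.47%, against 4.13% and 5.05% of other cells.

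Both genes named as markers but not used by the rule were higher in members. They were named with earlier results of these data known, so their levels are a description and no independent check. Crtam was at 93.5 CPM in control members against 32.9 in other control cells, and at 232 against 32.1 CPM in the DR library. The log2 ratio was 1.51 (1.32 to 1.69) in the control and 2.85 (2.60 to 3.10) in the DR library. Srm was at 33.5 against 13.1 CPM and 40.9 against 13.3 CPM, log2 ratios of 1.35 (1.04 to 1.65) and 1.63 (1.01 to 2.19). Members lay above other cells in both libraries for both genes, with intervals that did not overlap. Within the members each gene was in a minority, since Crtam was found in 89 of 290 and 34 of 68 members and Srm in 51 and 15. With every cell thinned to 3000 UMIs, Crtam was detected in 15.0% of control members against 6.35% of other cells, and in 34.8% against 6.31% in the DR library, and in 0 of 83 and 1 of 378 B reference cells. Srm was detected in 7.34% (4.60 to 11.0) against 2.78% (2.32 to 3.30) in the control library. In the DR library it was detected in 7.58% (2.51 to 16.8) against 2.86% (2.40 to 3.39), where the intervals overlapped. B reference cells had Srm in 14.5% and 9.79%, and the part of free RNA in any of these shares was not tested. The transcription factor gene Myc, a known driver of growth genes, was at 16.1 against 28.5 CPM in the control library and 39.4 against 29.9 CPM in the DR library. Its log2 ratio was -0.82 (-1.25 to -0.42) in the control library and 0.40 (-0.23 to 0.96) in the DR library, the latter within counting error. Irf4, which follows antigen receptor signals in lymphocytes, was at 3.35 and 4.55 CPM in members and 1.37 and 0.954 CPM in other cells.

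The next comparison asked which other genes differed between members and other cells. A gene with a mean of at least 50 CPM over the 4 sums was described, which left 3069 genes, and called higher or lower by size alone at a ratio of at least 1.5 in both libraries. In members 51 genes were higher, 1.66% of those described, and 20 were lower, 0.652%. The median log2 ratio over all described genes was -0.02 in the control and -0.07 in the DR library. Of the 3069 genes, 1000 lay above a ratio of 1 in both libraries and 1397 lay below it in both. Because the members were chosen on transcripts of the same cells, these counts are a description and carry no test. When the other cells were weighted to the members' distribution of depth, 27 genes were higher and 8 lower, and 21 of the 51 and 4 of the 20 were still called. The calls kept in this way are named as such below.

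**Figure D2:**
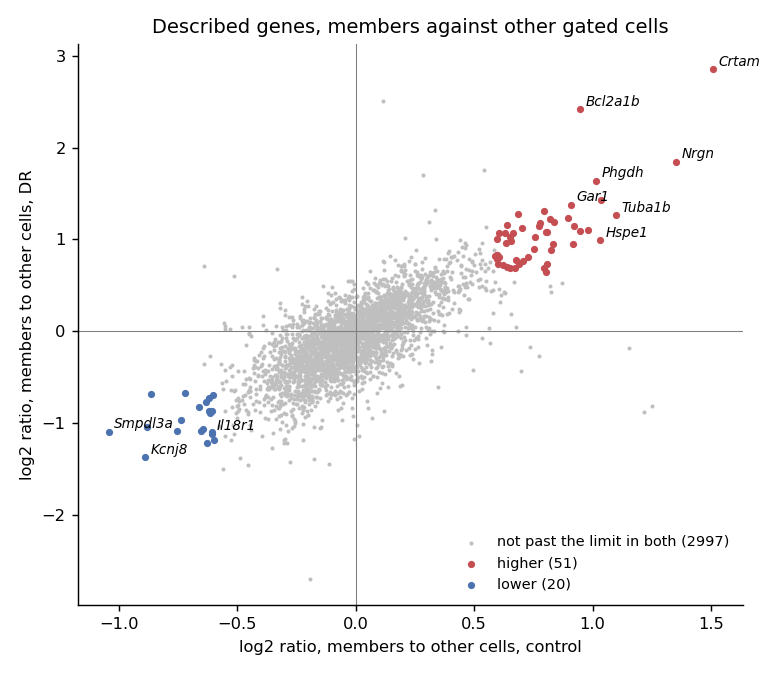
Each point is a described gene, with the log2 ratio of members to other gated cells in the control library on the horizontal axis and in the DR library on the vertical axis. The 51 genes called higher are red, the 20 called lower are blue, and 1 gene with 0 UMIs in DR members is not drawn; Crtam is farthest up at 1.51 and 2.85.

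Genes of ribosome production lay above the other cells as a group. These genes make and process ribosomal RNA in the nucleolus. Of 51 genes in the list, 24 were described, and 6 of these were higher, 0 lower and 22 above a ratio of 1 in both libraries. Among all 3069 described genes, 51 were higher, 20 lower and 1000 above a ratio of 1 in both libraries. The median log2 ratio of the 24 genes was 0.39 in the control and 0.73 in the DR library. It was 0.31 and 0.59 with weighting for depth, which left 2 called. Fbl, the methyltransferase fibrillarin, was at 153 against 82.2 CPM in the control library and 188 against 80.1 CPM in the DR library. Its log2 ratios were 0.90 (0.76 to 1.03) and 1.23 (0.96 to 1.49). Gar1, a protein of the small nucleolar particles that modify ribosomal RNA, was at 73.1 against 38.9 CPM and 108 against 41.5 CPM. Fbl and Gar1 were the calls kept with weighting. Nop58 and Nhp2, further components of such particles, had log2 ratios of 0.60 and 0.80 in the control and 1.07 and 1.08 in the DR library, and fell short of the limit with weighting.

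The ribosome production signal was not shared evenly by the members. As a share of a cell's own UMIs, these genes had a median of 0.286% in control members against 0.248% in other control cells. The medians were 0.330% against 0.250% in the DR library. Above the 90th percentile of the other cells lay 69 of 290 control members, 23.8%, and 27 of 68 DR members, 39.7%. By the definition of that percentile, 10% of the other cells lay above it. Most members therefore did not lie above it, and the minority that did was a larger share than among the other cells.

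**Figure D3:**
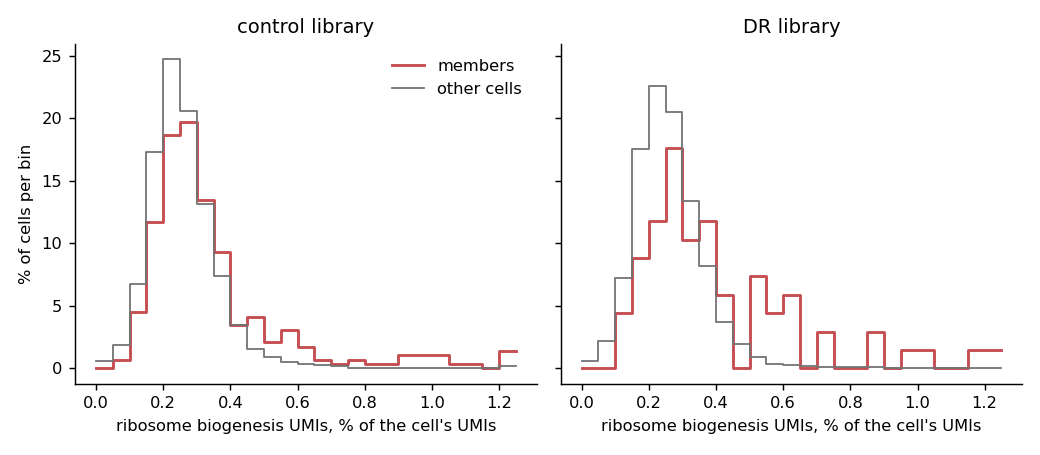
Ribosome production transcripts as a percentage of each cell's UMIs (horizontal axis, bins of 0.05, the last bin holding all higher cells) against the percentage of cells per bin (vertical axis), for members (red) and other gated cells (grey) of each library. Medians were 0.286 against 0.248 in the control and 0.330 against 0.250 in the DR library. A larger share of the members than of the other cells lies in the right tail, and both reach the last bin.

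Chaperones gave the largest number of calls of any list. Of 22 genes 21 were described, 9 were higher and 0 lower, and the medians were 0.58 and 0.66. Among all described genes 1.66% were higher. All 21 chaperone genes lay above a ratio of 1 in both libraries, against 1000 of all 3069 described genes. With weighting 6 chaperone genes were called, with medians of 0.40 and 0.52. Hspe1, the mitochondrial co-chaperonin, was at 380 against 186 CPM in the control library and 365 against 184 CPM in the DR library, with log2 ratios of 1.03 (0.95 to 1.12) and 0.99 (0.80 to 1.17). Hsp90ab1, the abundant cytosolic HSP90, was at 1658 against 929 CPM and 1859 against 819 CPM. Calr and Pdia6, which fold proteins in the endoplasmic reticulum, were at 482 against 271 CPM and 261 against 138 CPM in the control library and at 517 against 267 CPM and 232 against 120 CPM in the DR library. All 4 of these calls, and that of the mitochondrial HSP70 gene Hspa9, were kept with weighting.

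Genes of nucleotide and polyamine synthesis also lay higher, and most of their calls were lost when depth was weighted. In the nucleotide and one-carbon list, 4 of 7 described genes were higher, with medians of 0.68 and 0.77, and with weighting 1 was called, with medians of 0.28 and 0.38. That gene was Ppat, the first enzyme of purine synthesis, at 77.4 against 44.6 CPM in the control library and 86.4 against 34.8 CPM in the DR library. Nme1 was at 340.2 against 193 CPM and 491 against 211 CPM, log2 ratios of 0.82 (0.73 to 0.91) and 1.22 (1.05 to 1.38), and 0.50 and 0.98 with weighting. Its neighbour and near-identical paralog Nme2 was at 561 against 321 CPM and 791 against 373 CPM, and reads of the pair may be shared. Phgdh, the first enzyme of serine synthesis, was at 69.7 against 34.5 CPM and 95.5 against 30.7 CPM, and its call was kept with weighting. In the polyamine list, 2 of 6 described genes were higher, with medians of 0.26 and 0.43, and 0 were called with weighting. Odc1, ornithine decarboxylase, was at 66.1 against 42.4 CPM and 109 against 48.8 CPM. Eif5a, the translation factor that carries the spermidine-derived residue hypusine, was at 737 against 453 CPM and 961 against 441 CPM. Srm was below the level needed to be described.

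Other lists of cell growth showed few or no calls. Of 18 described translation initiation genes 0 were called, with medians of 0.15 and 0.26. Of the 18 genes, 14 lay above a ratio of 1 in both libraries, against 1000 of all 3069 described genes. Of 10 described glycolysis genes 1 was higher, Gapdh, at 706 against 465 CPM in the control library and 802 against 484 CPM in the DR library, and 0 with weighting. Of 19 nuclear respiratory chain genes 0 were called, with medians of 0.20 and 0.26. Of 19 cytosolic ribosomal protein genes 1 was higher, Rps2, and the list's medians of 0.16 and 0.34 became -0.03 and 0.09 with weighting. None of the 14 sterol synthesis genes reached the level to be described.

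Genes outside the growth lists stood at the top of the ranking. Nrgn, which encodes the calmodulin-binding protein neurogranin, was at 214 against 83.6 CPM in the control library and 418 against 116 CPM in the DR library, log2 ratios of 1.35 (1.23 to 1.47) and 1.84 (1.66 to 2.02). Bcl2a1b, a prosurvival member of the BCL2 family, was at 94.1 against 48.8 CPM and 165 against 30.9 CPM, log2 ratios of 0.95 (0.77 to 1.12) and 2.42 (2.12 to 2.70). It has near-identical paralogs, so its counts may be shared with them. Ppp1r14b, an inhibitor of protein phosphatase 1, was at 177 against 86.3 CPM and 217 against 80.7 CPM. These 3 calls were kept with weighting, as was Crtam at 1.02 and 2.08. The tubulin gene Tuba1b was at 402 against 188 CPM and 320 against 133 CPM, and was not called with weighting.

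The genes called lower were spread over few lists, and several lists lay below a ratio of 1 with few or no calls. In the quiescence and FOXO list 1 of 9 described genes was lower, and in the list of cytokine receptors and STAT5 targets 2 of 13 were. In that second list 11 of 13 lay below a ratio of 1 in both libraries and 2 above it. For activating NK receptors and adaptors 12 of 13 lay below and 1 above, with medians of -0.21 and -0.37. For trafficking and adhesion genes it was 14 of 16 and 1, with medians of -0.22 and -0.48. Of all 3069 described genes 1397 lay below. These counts are without weighting for depth. Smpdl3a, a phosphodiesterase gene, was at 32.0 against 65.9 CPM in the control library and 36.4 against 78.0 CPM in the DR library, log2 ratios of -1.04 (-1.34 to -0.76) and -1.10 (-1.75 to -0.52). Socs1, an inhibitor of cytokine receptor signalling, was at 39.0 against 70.8 CPM and 72.7 against 117 CPM. Sla, an adaptor that dampens antigen receptor signalling, was at 59.1 against 92.9 CPM and 60.6 against 129 CPM. Smpdl3a, Socs1 and Sla were kept with weighting, with log2 ratios from -0.73 to -1.03 in the control and -0.85 to -1.02 in the DR library. Il18r1, a chain of the interleukin-18 receptor, was at 134 against 205 CPM and 138 against 299 CPM and moved to -0.44 and -0.89 with weighting. Txnip, an inhibitor of glucose uptake, was at 361.5 against 550.5 CPM and 352 against 645 CPM and moved to -0.38 and -0.60. The glucocorticoid-induced gene Tsc22d3 and the potassium channel gene Kcnj8 were also called lower, and neither was called with weighting.

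Few other activation genes were called. Of the TNF superfamily list apart from Tnfrsf9, 4 of 25 genes were described and 0 called, with medians of -0.24 and -0.28. Tnfrsf18, which encodes the costimulatory receptor GITR, was at 102 against 124 CPM in the control library and 158 against 150.3 CPM in the DR library, and Tnfrsf4, which encodes OX40, stayed at 0.914 and 4.55 CPM in members. Il2ra, the alpha chain of the interleukin-2 receptor, was at 5.18 and 7.58 CPM. Of 7 described NF-kB genes 0 were called, with medians of -0.16 and 0.19. Nr4a1, an immediate early gene that follows receptor stimulation, was at 6.70 against 10.6 CPM in the control library and 28.8 against 6.05 CPM in the DR library. In DR members 18 of its 19 UMIs lay in 3 cells, and in control members 13 of 22 did. Without the Nr4a1 UMIs of those cells the levels were 1.52 CPM in DR and 2.74 CPM in control members. Of 11 described activation transcription factors 1 was higher, Tox, and Tbx21, which encodes T-bet, was at 132 against 151 CPM and 130.3 against 144 CPM.

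No effector gene was called without weighting. Of 12 described cytotoxic genes 0 were called, with medians of -0.07 and -0.02. Gzmb, granzyme B, was at 997 against 724 CPM in the control library and 1026 against 528 CPM in the DR library, log2 ratios of 0.46 (0.41 to 0.51) and 0.96 (0.84 to 1.07), and 0.79 and 1.45 with weighting. Gzma, granzyme A, was at 10154 against 13101 CPM and 6675 against 10976 CPM, log2 ratios of -0.37 and -0.72, and -0.06 and -0.25 with weighting. Prf1, perforin, was at 968 against 1156 CPM and 770 against 893 CPM. Ifng was at 54.5 against 63.4 CPM and 22.7 against 58.1 CPM.

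Maturation genes lay on both sides. Cd27, retained by immature NK cells, was at 88.0 against 93.6 CPM in the control library and 111 against 132 CPM in the DR library. Itgam, the integrin CD11b gained on maturation, was at 190.0 against 227 CPM and 84.9 against 165 CPM. Klrg1, a receptor of terminal NK cells, was at 241 against 206 CPM and 162 against 95.3 CPM, log2 ratios of 0.23 and 0.77. In the immature list 2 of 11 genes were higher, Kit and Thy1, with medians of -0.09 and -0.26, and in the mature list 2 of 12 were lower, Cma1 and Ly6c2, with medians of -0.22 and -0.55. These calls did not survive weighting for depth, which called 0 immature genes higher and 3 lower and 2 mature genes, Gzmb and Klrg1, higher.

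Levels of Srm, Crtam and the ribosome production genes were higher in cells with 1 selecting gene than with 0, and higher again with 2. Across the gate, Srm was at 9.34 CPM in control cells with 0 selecting genes, 19.6 with 1, 33.0 with 2 and 36.2 with 3. In the DR library it was at 10.9, 19.6, 41.0 and 39.9 CPM. The 51 ribosome production genes summed to 2586, 3058, 3747 and 3967 CPM in the control library and to 2615, 3084, 4500.4 and 4188 CPM in the DR library. The last value of each DR series comes from 6 cells. Crtam was at 20.1, 54.8, 93.4 and 94.0 CPM in the control library and at 21.7, 60.8, 238 and 160 CPM in the DR library. For these readouts, cells with 1 selecting gene thus lay between the others and the members, and median depth ran in the same order. Not every gene ran this way. In the control library Myc was at 26.8, 31.4, 18.7 and 3.62 CPM with 0, 1, 2 and 3 selecting genes, the last from 2 UMIs. Xcl1 was at 258, 683, 631 and 470 CPM there.

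**Figure D4:**
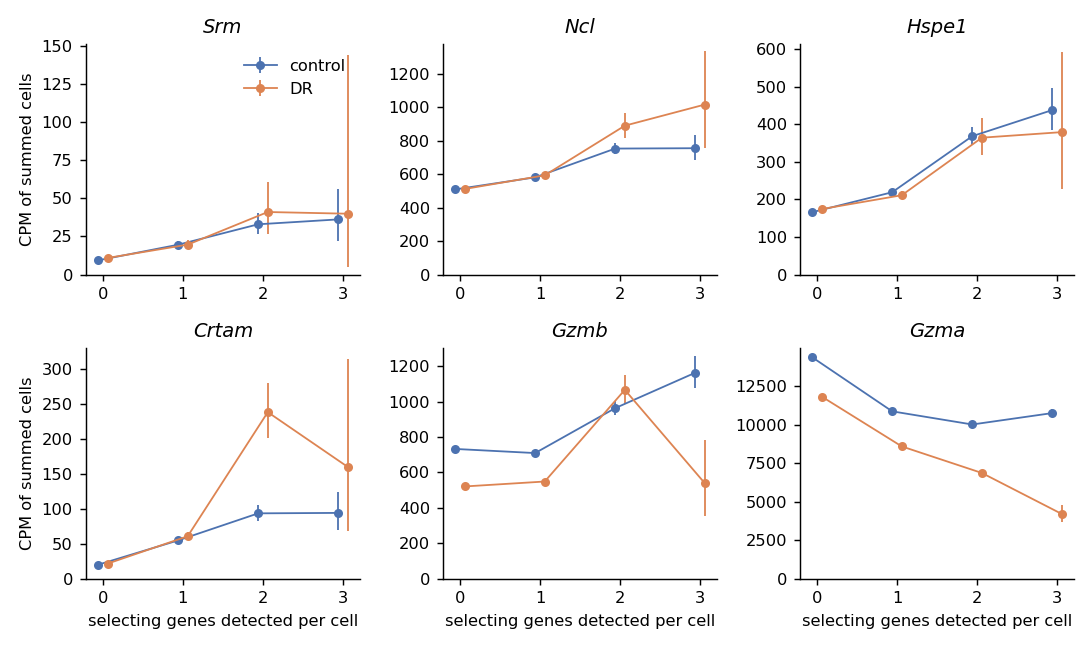
CPM (vertical axis, from 0) of Srm, Ncl, Hspe1, Crtam, Gzmb and Gzma in gated cells grouped by the number of selecting genes detected (horizontal axis, 0 to 3), in the control (blue) and DR (orange) libraries, with exact Poisson 95% intervals. Srm, Ncl, Hspe1 and Crtam are higher in cells with 2 than in cells with 0 in both libraries, and the DR group with 3 holds 6 cells.

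Just outside the threshold, cells with Tnfrsf9 alone had more ribosome production transcripts than cells with Spp1 or Serpine2 alone. In the control library the cells with Tnfrsf9 alone also had more Srm. In control cells with Tnfrsf9 alone, Srm was at 21.3 CPM (18.8 to 24.0) and the ribosome production sum at 3146 CPM. In control cells with Spp1 alone or Serpine2 alone (213 cells), Srm was at 7.45 CPM (3.97 to 12.7) and the sum at 2438 CPM, close to the 9.34 and 2586 CPM of cells with no selecting gene. The DR library had 48 such cells, with Srm at 13.3 CPM (4.30 to 30.9) and the sum at 2513 CPM, against 19.9 and 3111 CPM in the 999 cells with Tnfrsf9 alone. Srm in the 48 cells rests on 5 UMIs, and its difference there was within counting error. Other genes did not follow this order. Gzmb was at 694 CPM in control cells with Tnfrsf9 alone and 818 CPM in those with Spp1 or Serpine2 alone, and Klrg1 at 142 and 283 CPM. In the DR library Nrgn was at 194 and 297 CPM. For the ribosome production sum, members still lay above the Tnfrsf9-only cells, with sums of 3560 CPM in control members with Tnfrsf9 and Spp1 and 4279 CPM in those with Tnfrsf9 and Serpine2.

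The 2 main combinations differed in the control library. Crtam was at 189 CPM (158 to 224) in the 62 control members with Tnfrsf9 and Serpine2 and at 55.0 CPM (45.1 to 66.5) in the 170 with Tnfrsf9 and Spp1. Xcl1, a chemokine gene of less mature NK cells, was at 1029 against 376 CPM in the same order. Gzmb was at 561 against 1121 CPM, Klrg1 at 143 against 261 CPM and Itgam at 130 against 214 CPM. Each of these 5 differences was larger than counting error within this library. The combinations are defined by detected UMIs, and Serpine2 was also found in 15.1% of control B reference cells, so they are not read as kinds of cell. In the DR library none of the 5 was larger than counting error in the control direction. Crtam was at 198 and 199 CPM in its 20 and 39 members of these combinations. Xcl1 ran the other way, at 413 CPM (326 to 516) and 1311 CPM (1200 to 1429), with intervals that did not overlap. Of the Xcl1 UMIs of all DR members, 55.0% lay in 3 cells. Gzmb was at 970.0 and 1146 CPM. The intervals of Gzmb there overlapped, at 834 to 1122 and 1042 to 1256 CPM. Klrg1 was at 123 CPM (78.1 to 185) and 191 CPM (150.2 to 239) and Itgam at 75.03 CPM (41.0 to 126) and 81.5 CPM (55.7 to 115), overlapping as well. Gzmb, Klrg1 and Itgam thus kept the control direction, and these few cells do not settle whether they differed.

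A minority of members belonged to 2 other sets of active cells in the gate, at higher shares than among the other cells. Cycling cells, with at least 2 of 6 mitotic genes detected, numbered 127 in the control and 35 in the DR library and shared 15 and 2 cells with the members, which is 5.17% and 2.94% of members and 11.8% and 5.71% of cycling cells. Of the other cells 2.31% and 0.684% were cycling. Immediate early cells, with at least 2 Nr4a or Egr genes, numbered 143 and 79 and shared 15 and 4, which is 5.17% and 5.88% of members, 10.5% and 5.06% of that set, against 2.64% and 1.55% of the other cells. These shares were not compared at equal depth. The ribosome production sum was 3784 CPM in control members, 3613 CPM in cycling cells outside them, 3034 CPM in immediate early cells and 2711 CPM in the remaining cells. In the DR library it was 4477, 3414, 3167 and 2721 CPM. Gzmb was higher in members than in any of these sets, at 997 CPM against 357 CPM in cycling and 572 CPM in immediate early cells of the control library and at 1026 against 414 and 311 CPM in the DR library. Xcl1 was highest in the immediate early cells, at 2592 and 2693 CPM against 604 and 1385 CPM in members, and Nr4a1 was at 237 and 152 CPM there.

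The last comparison set the 68 DR members against the 290 control members. At 50 CPM a gene had 33.0 UMIs in DR members, so small ratios were not detectable at this depth. By size alone 53 genes were higher in DR members, 1.73% of those described, and 306 were lower, 9.97%. In the other cells 20 genes were higher and 29 lower in the DR library. These counts are not comparable with those of the members, since calls are by size alone. DR members rest on 659877 UMIs and the other DR cells on 30409047, so counting error moves more genes past the limit in members. The split depended on scaling: median-of-ratios scaling gave 88 higher and 155 lower, and CPM of UMIs outside mitochondrial and ribosomal protein genes gave 129 and 246. Over all described genes the log2 ratio had a median of -0.13 in members and -0.08 in other cells with CPM, and -0.02 in members with either alternative. The ribosome production genes had a median of 0.28 in members and -0.02 in other cells, with 1 of 24 higher. For members with at least 3 selecting genes, of which the DR library had 6, the median of the same 24 genes was -0.25.

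Chemokine genes were among the genes with the highest ratios of DR to control members, and few cells carried most of their transcripts. Ccl4, a chemokine of activated NK cells, was at 1455 CPM in DR members and 392 CPM in control members, a log2 ratio of 1.89 (1.77 to 2.01), against -0.49 in the other cells. Of its 960 UMIs in DR members, 636 lay in 3 cells, and without the Ccl4 UMIs of the 3 highest cells in each library the levels were 491 and 302 CPM. Xcl1 was at 1385 and 604 CPM, a log2 ratio of 1.20 (1.08 to 1.31) against -0.02 in the other cells, and 503 of its 914 UMIs lay in 3 cells. Without the Xcl1 UMIs of the 3 highest cells in each library its levels were 623 and 482 CPM, under the ratio of 1.5 used for calls. Cells with a UMI made up 70.6% of DR and 70.0% of control members for Ccl4 and 72.1% and 56.6% for Xcl1. Cd74, a B and dendritic cell marker, was at 144 and 39.6 CPM, a log2 ratio of 1.86 against 0.51 in the other cells, with 63 of its 95 UMIs in 3 DR members. The B list that holds it summed to 323 and 169 CPM, and the part of B cell RNA in this was not tested. The counting intervals of the ratios in this group of genes are therefore narrower than the spread between cells.

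Of the 51 genes called higher in members, 5 were also higher in DR than in control members, which are Crtam, Nrgn, Bcl2a1b, Odc1 and Thy1, and 2 were lower. Among all described genes 1.73% were higher and 9.97% lower. The counts of DR members enter both calls, so the overlap is a description and carries no test. Others of the 51 were not higher, such as Hspe1 at 365 and 380 CPM, Pdia6 at 232 and 261 CPM and Tuba1b at 320 and 402 CPM in DR and control members. Of 21 chaperone genes 0 were higher. Crtam was at 232 CPM in DR and 93.5 CPM in control members, a log2 ratio of 1.31 (1.02 to 1.59) against -0.03 in the other cells. It was detected in 34 of 68 DR members and 30.7% of control members, and 50 of its 153 UMIs in DR members lay in 3 cells. Nrgn had a log2 ratio of 0.97 (0.76 to 1.17) against 0.48 in the other cells, and Bcl2a1b of 0.81 (0.48 to 1.13) against -0.66. Among genes not called between members and other cells, Cd7, a gene of less mature NK cells, was at 1267 and 635 CPM, a log2 ratio of 0.997 (0.88 to 1.11) against 0.33. Lars, a leucyl-tRNA synthetase gene, and Zfp512, a zinc finger gene, had log2 ratios of 1.10 and 1.12, against 0.30 and 0.69. Whether the ratios differed between members and other cells was not tested.

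Genes of division and of terminal maturation were lower in DR members, the former through few cells. Hist1h1b, a histone made in S phase, had 876 UMIs in 21 control members and 0 in DR members, at least 58.7-fold lower against a floor of 3 UMIs over the group. Top2a was at 136 and 9.09 CPM and Stmn1 at 274 and 65.2 CPM, log2 ratios of -3.91 (-5.36 to -2.77) and -2.07 (-2.55 to -1.63), against -1.81 and -1.03 in the other cells. Cycling cells made up 5.17% of control and 2.94% of DR members. With cycling cells left out the ratio of Top2a was -0.22 and that of Stmn1 -0.34. Top2a is among the genes that define cycling cells, so its shift follows in part from that choice. Cx3cr1, a chemokine receptor of terminal NK cells, had 2 UMIs in DR members and was at 3.03 CPM there and 102 CPM in control members, a log2 ratio of -5.07 (-8.12 to -3.21) against -2.56 in the other cells. Itgam was lower too, with a log2 ratio of -1.16 (-1.58 to -0.77) against -0.46, and Zeb2, a transcription factor of terminal maturation, of -0.99 against -0.63. In the mature list 5 of 12 genes were lower in DR members and 0 higher, with a median of -0.57 against -0.46 in the other cells. In the immature list 6 of 11 were higher and 0 lower, with a median of 0.72 against 0.50. Over all described genes 9.97% were lower and 1.73% higher in DR members. Gzmb was at nearly the same level in members of both libraries, with a log2 ratio of 0.04 (-0.08 to 0.16) against -0.45 in the other cells, and Eomes had a ratio of -0.19 (-0.42 to 0.04).

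**Figure D5:**
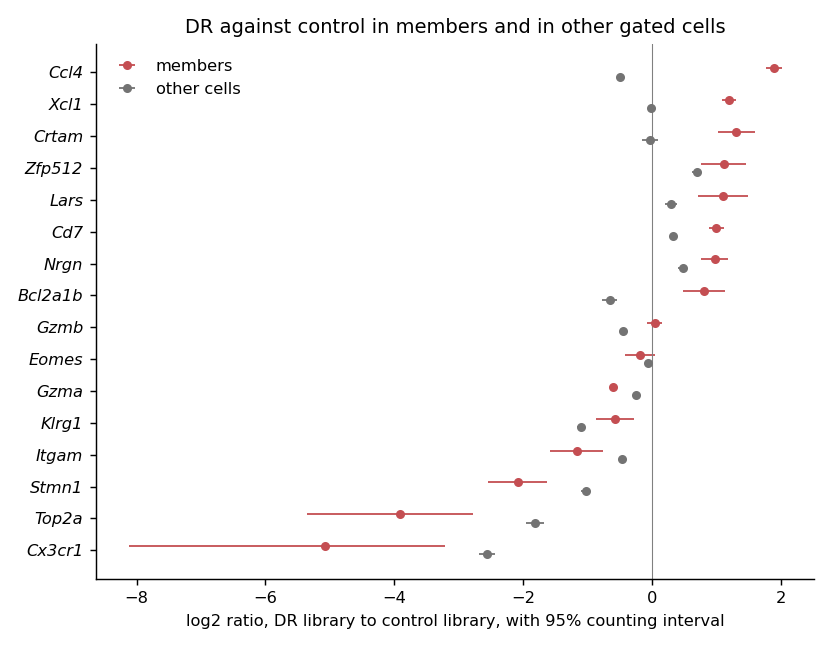
Log2 ratio of the DR library to the control library (horizontal axis) for 16 genes (vertical axis) in members (red) and in other gated cells (grey), with exact conditional binomial 95% intervals for counting error. Ccl4, Xcl1 and Crtam lie at 1.89, 1.20 and 1.31 in members and at -0.49, -0.02 and -0.03 in other cells.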

How the data were processed

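The deposited values were raw UMI counts per gene and cell barcode, produced by Cell Ranger, per the file headers, and not normalized by the authors. The matrix headers name Cell Ranger 5.0.1, the submitters' processing notes name 2.1.1 and build mm10, and the files do not settle which. Cells were kept if they held 500 or more genes and no more than 10% mitochondrial UMIs (11607 cells) and gated as described. Counts were summed over members and other cells per library. CPM have exact Poisson, ratios exact conditional binomial and shares exact Clopper-Pearson intervals. The 10 genes of the rule and gate were left out of the calls, and 78 listed genes that share a symbol were never named. Weighting for depth gave the other cells the members' distribution over 5 depth bins. Interval code was tested on simulated data. Doublets were scored with Scrublet in scanpy 1.11.5, whose automatic threshold called 0 cells in either library and was judged not to have worked, so scores were ranked by cell load (0.8% per 1000 cells) and no cell was removed. Python 3.11.15, numpy 2.4.6 and scipy 1.17.1 were used.

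Named genes were the 12 described genes with the largest ratio each way and the 8 with the largest DR to control ratio each way, by the interval end nearest a ratio of 1, up to 4 genes of each of 31 lists, and 25 fixed genes. Ribosomal, mitochondrial and receptor-segment genes and unnamed gene models were left out of the rankings. The members, lists and tests were chosen with earlier results of these data known. Alternatives changed the threshold, gate, cell filters, doublets, cycling cells, depth weighting, scaling, expression floor and ratio.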

Additional observations from a re-analysis of the deposited data

Results flagged for a closer look

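In 3 named genes that reached the level to be described, members and other cells differed in opposite directions in the 2 libraries, by more than 1.5-fold each way. Genes below that level, such as Nr4a1, are left out of this count. With 1 library per group the difference between the ratios was not tested. Cd74, the invariant chain of MHC class II, had a log2 ratio of 0.71 in the DR library and -0.64 in the control library. In DR members 63 of its 95 UMIs lay in 3 cells, and in control members 75 of 130 did.

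The cell division genes Hist1h2ap and Top2a pointed the other way. Hist1h2ap had a log2 ratio of -0.81 in the DR library and was 2.38-fold higher in control members than in other control cells. Top2a had log2 ratios of -0.88 and 1.22. Cycling cells made up 5.17% of control and 2.94% of DR members, and with those cells left out the control ratios were -0.38 and -0.04. Top2a is among the genes that define cycling cells, so its value there follows in part from that choice.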

How the results depend on the processing

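No paired analysis was possible because each group is 1 library. The member share (5.65% and 1.39%) was 0.975% and 0.123% for at least 3 of the 4 genes, 1.90% and 0.556% after thinning to 3000 UMIs, 1.21% and 0.374% after thinning to 2000, and 6.38% in control cells with Eomes.

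The counts of genes higher in members (51), lower in members (20), higher in DR members (53) and lower in DR members (306) followed the floor and ratio. They were 103, 51, 207 and 782 at 20 CPM, 25, 7, 24 and 109 at 100 CPM, 198, 165, 237 and 832 when a difference of 25% was enough, and 5, 1, 8 and 42 at a ratio of 2. Depth weighting gave 27 and 8 for the first pair. With at least 3 genes (6 DR cells), 66 were lower in members and 549 and 773 higher and lower in DR members. Without 1-gene cells 42 were lower. Median-of-ratios scaling gave 88 and 155 in DR members, and CPM outside mitochondrial and ribosomal protein genes gave 129 higher.

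The ribosome production median in the control library (0.39) was 0.49 with at least 3 genes and without 1-gene cells, 0.43 without the highest doublet scores and at 100 CPM, 0.44 without cycling cells and outside mitochondrial and ribosomal genes, 0.35 without cells with other-lineage UMIs, and 0.31 with weighting. In the DR library (0.73) it was 0.58, 0.79 without 1-gene cells and at 100 CPM, 0.59 with weighting, 0.82 with median-of-ratios and 0.64 without the 4 members with Ccl1, an alternative chosen after seeing the data. DR to control members (0.28) gave 0.071 with at least 3 genes, 0.34 with both Ncr1 and Klrb1c, 0.15 with Eomes, 0.37 without other-lineage cells and outside mitochondrial and ribosomal genes, 0.39 with median-of-ratios and 0.19 without Ccl1 members. The value of 0.071 is over the genes described under that setting, and over the 24 genes of the main result it was -0.25, the opposite sign. The other medians printed here stayed above 0, and the cause of each shift was not tested.

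Among single genes, the sign of a log2 ratio turned as follows. For at least 3 genes, the control ratios of members to other cells were -3.08 for Hist1h1b, -1.73 for Hist1h2ap, -1.11 for Top2a, -0.89 for Stmn1 and -0.25 for Kit, and the DR ratios -2.14 for Cd74, -0.31 for Thy1 and -0.26 for Klrg1. The DR to control ratios of Bcl2a1b and Thy1 were -0.17 and -0.28. With weighting, the control ratios were -0.0085 for Hist1h1b, -0.14 for Hist1h2ap, -0.19 for Top2a, -0.28 for Stmn1 and 0.046 for Ly6c2, and the DR ratio of Cd74 was -0.37. Without cycling cells they were -0.38 for Hist1h2ap, -0.041 for Top2a and -0.33 for Stmn1, the DR ratio of Top2a was 0.19 and the DR to control ratio of Hist1h2ap 0.10. In cells with Eomes the control ratio of Cd74 was 0.31.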
